A study of Homo sapiens with 12 samples.

Results

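The AP-1 family of FOS and JUN genes was examined in HEK293T RNA-Seq libraries: FOS, FOSB, FOSL1, FOSL2, JUN, JUNB and JUND, 7 of the 58735 genes in the count table. These genes were chosen by name, and the choice was made on measured values, because FOS and JUN had been seen to differ in opposite directions with CEP. The study monitored the transcriptome of HEK293T, a line derived from human embryonic kidney and given as wild type, under the conditions of a chemical proteomic method that captures RNA-binding proteins. There were 4 groups of 3 libraries. DMSO received vehicle, CEP received AHL-Pu-1, a clickable electrophilic purine, for 1 h at 37 °C, 4SU received 100 µM 4-thiouridine for 16 h, and CEP+4SU received both. CEP is a purine carrying an alkyne handle that reacts with cysteines, and 4SU is a uridine analogue that cells build into RNA and that crosslinks to protein under UV light. The dose of CEP is 25 µM in the design text, while the sample protocol prints the same number in mM. That protocol, which is the same text for all 12 libraries, has cells UV-crosslinked on ice after 4SU and before CEP in serum-free medium, so what the DMSO group received of light and medium change is not given separately. All libraries come from a single cell line.

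FOS and JUN proteins share a basic leucine zipper and bind DNA as dimers named AP-1, with JUN proteins able to pair among themselves and FOS proteins needing a JUN partner. FOS, FOSB, JUN and JUNB are immediate early genes, transcribed without new protein synthesis within minutes of a growth factor or stress, and their mRNAs are short-lived. FOSL1 and FOSL2 (FRA-1 and FRA-2) are usually induced later, and JUND is expressed at a steady level in many cells.

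The promoters of FOS, FOSB and JUN are shown for the following reasons. FOS was the member that stood higher with CEP, and FOSB carries the same pair of elements but did not stand apart. JUN was the only member with every library with CEP below every library without it. RefSeq promoters on GRCh38.p14, each 250 bases before and 50 after the start, were matched for 6 of 7 members. They lie at chr14:75278578-75278877 (FOS, plus strand), chr19:45467746-45468045 (FOSB, plus strand) and chr1:58783998-58784297 (JUN, minus strand). Capitals mark TGACGT, the core of the cAMP response element, and TATAAA, the TATA box, in FOS and FOSB, and CCAAT and TGACATCA, an AP-1-like element, in JUN.
FOS: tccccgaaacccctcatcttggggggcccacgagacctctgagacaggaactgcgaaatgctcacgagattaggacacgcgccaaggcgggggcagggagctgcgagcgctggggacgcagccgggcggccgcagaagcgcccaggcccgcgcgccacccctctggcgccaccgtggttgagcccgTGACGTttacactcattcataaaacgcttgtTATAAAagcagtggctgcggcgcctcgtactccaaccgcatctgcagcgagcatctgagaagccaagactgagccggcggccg
FOSB: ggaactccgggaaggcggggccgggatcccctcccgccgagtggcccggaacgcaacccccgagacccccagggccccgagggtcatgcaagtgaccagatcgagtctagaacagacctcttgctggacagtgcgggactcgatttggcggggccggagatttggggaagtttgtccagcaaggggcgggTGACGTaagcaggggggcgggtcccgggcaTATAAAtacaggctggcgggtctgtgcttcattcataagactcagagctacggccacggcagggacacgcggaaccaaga
JUN: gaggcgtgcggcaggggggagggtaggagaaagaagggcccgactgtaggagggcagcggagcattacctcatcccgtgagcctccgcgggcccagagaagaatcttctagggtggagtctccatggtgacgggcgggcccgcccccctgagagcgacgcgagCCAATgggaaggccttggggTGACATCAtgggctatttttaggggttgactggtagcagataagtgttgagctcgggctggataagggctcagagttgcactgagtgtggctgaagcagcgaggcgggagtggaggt
TGACGT starts 64 bases before the start of FOS and 60 before that of FOSB, and TATAAA follows at 33 and 30 bases before. In JUN, CCAAT starts 87 and TGACATCA 67 bases before the start. On both strands, TGACGT is present in 7.98% of 35116 promoters of this length, TATAAA in 11.5%, TGACATCA in 2.61% and CCAAT in 34.6%. Of the promoters not printed, FOSL2 holds TGACGT and TGACTCA, the AP-1 site found in 4.95% of promoters, JUNB holds TATAAA and CCAAT, and JUND holds CCAAT as well as TGACGT and the full palindrome TGACGTCA, found in 1.85% and containing TGACGT on each strand. These matches describe letters only.

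The libraries held 16569114 to 24644734 counts on genes. CEP replicate 2 and CEP+4SU replicate 2 stood apart, with 22230 and 22627 genes detected against 24376 to 25869 in the other 10, and values without them are given where they touch a member. Of the markers associated with HEK293, 8 of 8 were detected, among them NEFM at 32.1 to 40.9 FPKM and PAX2 at 0.832 to 1.46 FPKM. FPKM, the authors' unit, is fragments scaled to gene length and to library size. Of the defining genes of other cell types, CD3E was at 0 in all libraries, PTPRC at most at 0.0134 FPKM, ALB at most at 0.0781, PECAM1 at most at 0.121 and MLANA at most at 0.304, while PMEL was at 1.15 to 2.73 FPKM. In bulk RNA, fewer cells expressing a gene and less RNA per cell cannot be told apart.

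Per length, AP-1 mRNA in these cells was mostly JUN and JUND. In DMSO, JUN stood at 118.7 ± 13.9 FPKM (SD, n = 3), JUND at 44.5 ± 3.8, JUNB at 9.26 ± 1.37, FOSL1 at 1.53 ± 0.21, FOS at 1.29 ± 0.16, FOSL2 at 1.03 ± 0.10 and FOSB at 0.863 ± 0.213. The order JUN, JUND, JUNB held without overlap of libraries, and JUNB lay above every FOS gene. Among the FOS genes of DMSO, each neighbour in that order overlapped the next. In CEP and in CEP+4SU, FOS was the highest of the 4 FOS genes, and its lowest library, at 3.13 and 2.67 FPKM, lay above the highest of FOSL1, at 1.61 and 1.75 FPKM. JUN, JUNB and JUND have 1 exon each and the FOS genes 4 in the principal transcript.

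**Figure D1:**
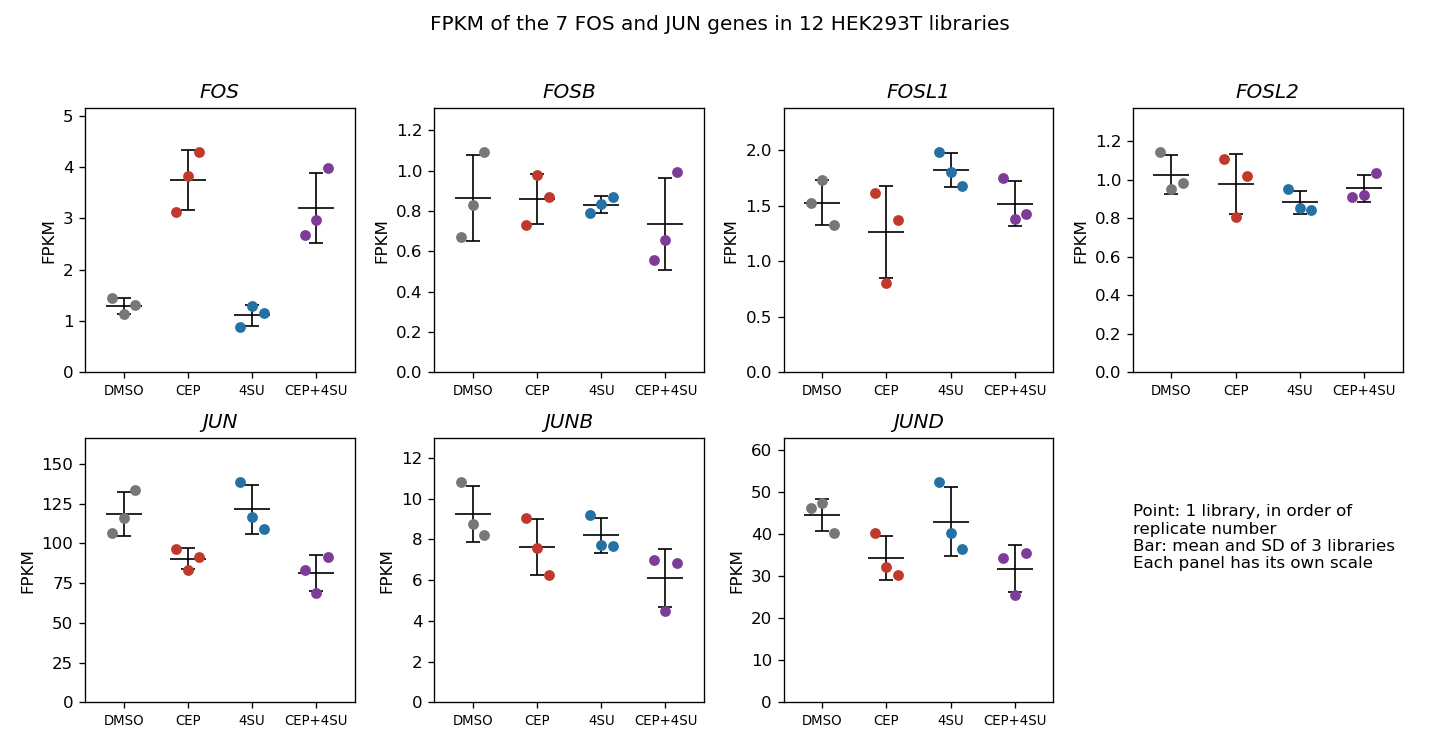
FPKM of each member (y axis, from 0, with its own scale in each panel) in the 4 groups (x axis), with 1 point per library and the mean and SD of 3 libraries as bars. The 6 FOS libraries with CEP lie between 2.67 and 4.29 FPKM, above the 6 without it, and the 6 JUN libraries with CEP lie between 68.8 and 96.4 FPKM, below the 6 without it.

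FOS, the dimer partner that cannot bind DNA without a JUN protein, lies on chromosome 14 from 75278774 to 75282230, plus strand (GRCh38). In DMSO its libraries held 1.45, 1.13 and 1.30 FPKM, and in CEP 3.13, 3.82 and 4.29. In 4SU they held 0.880, 1.29 and 1.16 FPKM, and in CEP+4SU 2.67, 2.98 and 3.98. All libraries with CEP were above all libraries without it, in both settings. As counts, FOS had 54 to 107 in the libraries without CEP and 162 to 296 in those with it. The fitted log2 fold change was 1.54 (SE 0.19) for CEP against DMSO and 1.54 (SE 0.20) for CEP+4SU against 4SU, or 2.90-fold and 2.92-fold. Because CEP against DMSO and CEP averaged over 4SU chose the members, no test is given there, nor for FOS and JUN in CEP+4SU against 4SU. Leaving out any 1 library gave an averaged log2 fold change of 1.43 to 1.60, and leaving out the 2 libraries with few detected genes gave 1.56.

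JUN, the most abundant member and a subunit able to pair with itself, lies on chromosome 1 from 58780788 to 58784327, minus strand. DMSO libraries held 106.2, 116.2 and 133.6 FPKM, against 96.4, 83.5 and 91.2 in CEP. Those of 4SU held 138.4, 116.4 and 109.2 FPKM, against 83.4, 68.8 and 91.4 in CEP+4SU. Every library with CEP was below every library without it, but the gap was small, from 96.4 to 106.2 FPKM. The log2 fold change was -0.39 (SE 0.11) for CEP against DMSO and -0.57 (SE 0.11) for CEP+4SU against 4SU, which is 0.763 and 0.673 of the level without CEP. The average over both, -0.48, was -0.40 without the 2 libraries with few detected genes and -0.36 with the trend with GC content removed, a correction described further on.

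JUND and JUNB stood lower too, and the members were not tested against each other. JUND, on chromosome 19 from 18279760 to 18281622, held 46.1, 47.3 and 40.3 FPKM in DMSO and 40.1, 32.2 and 30.3 in CEP. It held 52.2, 40.1 and 36.4 FPKM in 4SU and 34.3, 25.4 and 35.5 in CEP+4SU. In each setting the groups did not overlap, although the nearest libraries differed by less than 1 FPKM. JUNB, which competes with JUN for partners, on chromosome 19 from 12791496 to 12793315, held 10.8, 8.74 and 8.24 FPKM in DMSO and 9.03, 7.57 and 6.27 in CEP, and these overlapped. It held 9.19, 7.75 and 7.66 FPKM in 4SU and 6.97, 4.49 and 6.86 in CEP+4SU, without overlap. The log2 fold change of CEP against DMSO was -0.38 for JUND (SE 0.14) and -0.28 for JUNB (SE 0.17). With the GC trend removed both values were small and positive, at 0.07 for JUND (SE 0.086) and 0.05 for JUNB. The JUND value was smaller than its standard error, so no reversal is claimed.

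In the comparison of CEP+4SU with 4SU, 5 members were tested. Its libraries also entered CEP averaged over 4SU, which chose the members, so this test was not independent of that choice. By edgeR's quasi-likelihood test at a Benjamini-Hochberg adjusted p of 0.05, 0 of 5 passed for CEP+4SU against 4SU. Of all 17729 tested genes, 0.0451% did. The log2 fold changes there were -0.43 for JUND (SE 0.14, adjusted p = 0.619), -0.42 for JUNB (SE 0.18, adjusted p = 0.619), -0.26 for FOSL1 (SE 0.26, adjusted p = 0.774), -0.17 for FOSB (SE 0.24, adjusted p = 0.846) and 0.12 for FOSL2 (SE 0.17, adjusted p = 0.838). At an unadjusted p under 0.05, 2 of 5 (JUNB and JUND) were counted by edgeR, DESeq2 and limma alike, where 7.89% of all genes were by edgeR. That count was 0 of 5 with the GC trend removed and 1 of 5 (JUND) without the 2 libraries with few detected genes. By DESeq2 or limma, 0 of 5 passed the adjustment. JUND passed in 1 of 24 alternatives, the fit of every gene with a count (adjusted p = 0.00672, range over the alternatives 0.00672 to 1). JUNB in this comparison moved from -0.42 to -0.25 without CEP+4SU replicate 2, which held 172 counts of it. JUNB shares 259 of its 1820 exonic bases (14.2%) with exons of HOOK2, a dynein adaptor gene on the opposite strand. Whether counting used strand is not stated, so reads over those bases could not be assigned with certainty. HOOK2 itself had a log2 fold change of -0.05 (SE 0.12) in this comparison.

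FOSB, FOSL1 and FOSL2 showed no separation with CEP: their groups overlapped in both settings. FOSB held 0.670 to 1.09 FPKM in DMSO and 0.728 to 0.977 in CEP, with a log2 fold change of -0.01 (SE 0.23). Its gene lies inside the span of ERCC1, a DNA repair gene on the opposite strand, but shares 0 exonic bases with it. FOSL2 held 0.950 to 1.14 FPKM in DMSO and 0.807 to 1.11 in CEP, with a log2 fold change of -0.06 (SE 0.16). For FOSL1 the values were 1.32 to 1.74 FPKM in DMSO and 0.804 to 1.61 in CEP, with a log2 fold change of -0.26 (SE 0.26). The lowest FOSL1 value, 26 counts, was in CEP replicate 2, and without that library the log2 fold change was -0.03. Counts of these 3 genes were 26 to 187 a library, which limits what can be seen. FOSL2 also overlaps AC104695.3 and FLJ31356, which had at most 3 counts.

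**Figure D2:**
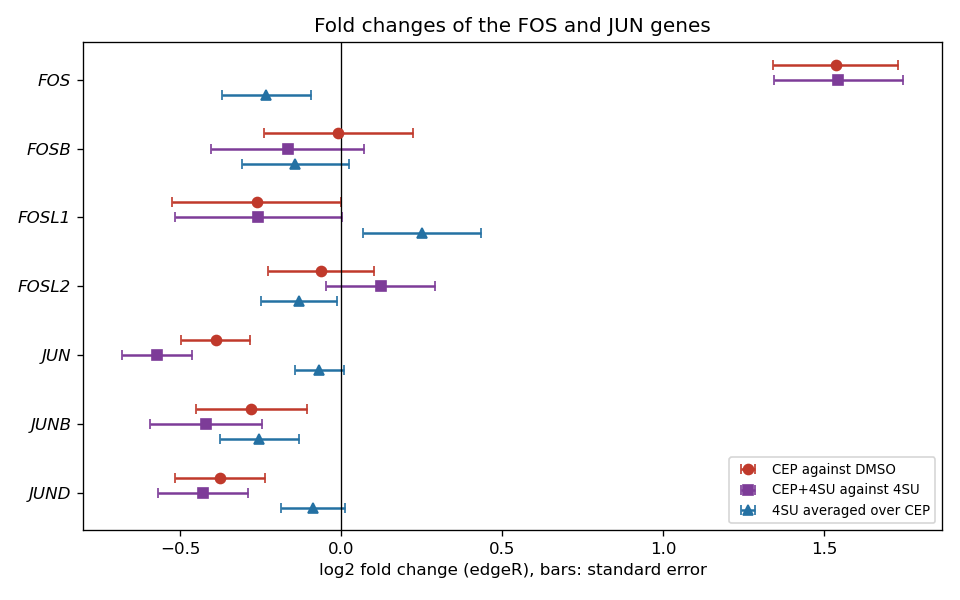
Log2 fold change (x axis) of each member (y axis) for CEP against DMSO, CEP+4SU against 4SU and 4SU averaged over CEP, with bars of 1 standard error. FOS lies at 1.54 in both CEP comparisons, the 3 JUN genes lie between -0.28 and -0.57, and the 4SU values lie between -0.25 and 0.25.

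Counted by separation alone, on log2 CPM (counts scaled to library size), 1 of 7 members (FOS) had every CEP library above every DMSO library, as had 13.5% of all tested genes, and 2 of 7 (JUN and JUND) every one below, as had 10.1%. For CEP+4SU against 4SU, 1 of 7 lay wholly above (7.58% of genes) and 3 of 7 (JUN, JUNB and JUND) wholly below (6.01%). With all 6 libraries with CEP set against the 6 without, FOS alone lay above (1.21% of genes) and JUN alone below (0.513%). These comparisons chose the members, and the counts are a description.

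The balance of FOS to JUN mRNA differed between libraries with and without CEP. Because FOS and JUN were chosen for their opposite directions with CEP in these libraries, the ratio is a description and was not tested. For every 100 JUN counts, DMSO libraries held 0.892 to 1.25 FOS counts and CEP libraries 2.97 to 4.30. In 4SU there were 0.581 to 1.01 FOS counts per 100 of JUN and in CEP+4SU 2.93 to 3.98. The log2 ratio of FOS to JUN was 2.02 higher with CEP than without, and 1.89 to 2.10 when any 1 library was left out. FOS mRNA was nevertheless a small share of the summed FPKM of the 7 genes, 0.640% to 0.861% in DMSO and 2.06% to 3.17% in CEP, while JUN made up 63.3% to 71.5% and 63.3% to 67.4%. The 4 FOS genes together were 2.52% to 2.85% of the sum in DMSO, 4.33% to 5.58% in CEP, 2.25% to 2.89% in 4SU and 4.51% to 5.68% in CEP+4SU. Summed FPKM was 177 ± 9.5 in DMSO, 139 ± 11.6 in CEP, 177 ± 24.3 in 4SU and 125 ± 18.8 in CEP+4SU (SD, n = 3).

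**Figure D3:**
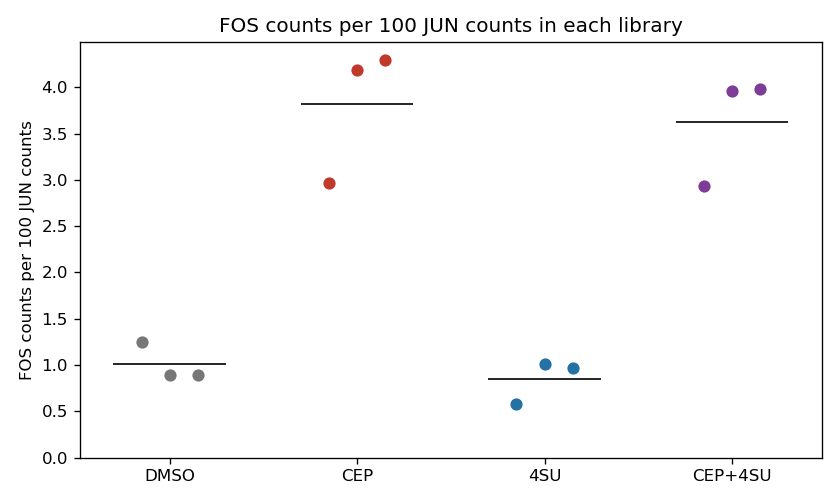
FOS counts per 100 JUN counts (y axis, from 0) in each of the 12 libraries (points) by group (x axis), with the group mean as a line. Libraries without CEP lie between 0.581 and 1.25, and those with CEP between 2.93 and 4.30.

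The effect of 4SU, averaged over the libraries with and without CEP, was tested for all 7 members, since it was not used to choose them. By edgeR's quasi-likelihood test 0 of 7 passed, where 0.558% of tested genes did. No member had an unadjusted p under 0.05 by edgeR (12.6% of genes had), DESeq2 or limma on FPKM, and 0 of 7 passed the adjustment by DESeq2 or limma. In some refits by edgeR 1 of 7, JUNB, was under that unadjusted threshold, though it did not pass the adjustment. These were the fits with no low-count filter, with a replicate block, with the GC or the length trend removed, and with block and GC together. The log2 fold change of JUNB was -0.25 (SE 0.12, adjusted p = 0.402), that of FOS -0.23 (SE 0.14, adjusted p = 0.517) and that of FOSL1 0.25 (SE 0.18, adjusted p = 0.625). JUN, JUND, FOSB and FOSL2 had -0.07, -0.09, -0.14 and -0.13, with adjusted p from 0.707 to 0.785. With 6 libraries with 4SU set against 6 without, 0 of 7 members lay wholly above (0.491% of genes) and 0 of 7 wholly below (0.863%). Against DMSO alone, 0 of 7 lay above (7.58%) and 1 of 7, FOSL2, lay below in 4SU (10.3%), at 6.05 to 6.83 CPM against 6.85 to 8.23, a gap that closed in FPKM. Between CEP+4SU and CEP, 0 of 7 lay wholly above (5.61%) or below (6.05%).

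Whether the difference with CEP changed in the presence of 4SU was tested as an interaction. Of 7 members 0 passed by edgeR, as did 0.00% of all tested genes, and none had an unadjusted p under 0.05 (2.63% of genes had). DESeq2 and limma passed 0 of 7 too, also with 0 at an unadjusted p under 0.05. With the GC trend removed 1 of 7, JUN, was under that unadjusted threshold, at an interaction of -0.24 (SE 0.11, adjusted p = 0.998). For FOS the interaction was 0.01 on the log2 scale (SE 0.27) and for JUN -0.18 (SE 0.15). The others ranged from -0.16 for FOSB (SE 0.33) to 0.19 for FOSL2 (SE 0.24). For JUNB the standard error was 0.24 and for JUND 0.20. Standard errors of this size leave room for sizeable unequal responses in every member, JUN among them.

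GC content moved with the difference between libraries with and without CEP. Over all tested genes, the median log2 fold change of CEP averaged over 4SU went from 0.17 in the decile of genes lowest in GC to -0.245 in the highest decile. JUND (69.7% GC) and JUNB (64.9%) belong to that highest decile, whereas FOS has 52.6%, FOSL2 53.3%, JUN 56.7%, FOSB 57.7% and FOSL1 60.04%. With each library's trend on GC removed, JUND went from -0.40 to -0.03 and JUNB from -0.35 to -0.09. JUN went from -0.48 to -0.36 (SE 0.056), and FOS from 1.54 to 1.60 (SE 0.14). For CEP against DMSO alone, the corrected values were 0.07 for JUND, 0.05 for JUNB, -0.24 for JUN and 1.62 for FOS. In CEP+4SU against 4SU they were -0.14, -0.22, -0.47 and 1.59 in the same order, and 0 of the 5 tested members then had an unadjusted p under 0.05. The source of the trend was not tested.

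Genes that act with AP-1 were followed as 4 lists. Of 22 bZIP partners, proteins of the ATF, CREB and MAF families that can share a zipper or a site, 21 were tested, and BATF had at most 1 count. Tested too were 30 of 30 kinases and factors upstream of FOS and JUN, 8 of 8 proteins that bind the AU-rich elements of such mRNAs, and 14 of 20 AP-1 targets, where MMP1, MMP3, MMP9, MMP10 and IL6, not tested, had at most 18 counts. VIM is a target here and also one of the HEK293 markers above. By edgeR 0 genes of any list passed in CEP against DMSO (0.0564% of all genes passed), in CEP+4SU against 4SU, in CEP averaged over 4SU (0.276%) or in the interaction.

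For CEP averaged over 4SU, 7 bZIP partners were higher and 3 lower at an unadjusted p under 0.05, as were 9 and 5 of the upstream genes, 2 and 0 of the AU-rich element binders, and 0 and 1 of the targets. Over all tested genes, 24.3% were under that threshold in this comparison, 7.89% in CEP+4SU against 4SU, 18.6% in CEP against DMSO and 2.63% in the interaction. DESeq2, which passed 1474 genes in all in this comparison, passed 3 bZIP partners as higher (ATF1, ATF2 and CREB1), 4 upstream genes, 2 AU-rich element binders and 1 target, and limma on FPKM passed 0 in each list. Median log2 fold changes were -0.03, 0.0027, 0.03 and 0.10 in the same order, against -0.01 over all tested genes. In CEP+4SU against 4SU the unadjusted counts were 1 higher and 2 lower, 2 and 0, 1 and 0, and 0 and 0, and DESeq2 and limma passed 0 in each list. In CEP against DMSO they were 4 and 3, 7 and 5, 2 and 1, and 2 and 1, where DESeq2 passed 1, 1, 1 and 0 genes and limma 0. In the interaction they were 2 and 0, 1 and 0, 0 and 0, and 0 and 0, with 0 passed by DESeq2 or limma.

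Within each list the gene with the smallest p for CEP averaged over 4SU is given. ZFP36L1, which speeds the decay of AU-rich mRNAs, went from 24.3 CPM in DMSO to 32.6 in CEP and from 24.9 in 4SU to 30.3 in CEP+4SU (log2 fold change 0.35, SE 0.076, adjusted p = 0.0507). CREB1, a factor that binds the cAMP response element, went from 44.9 to 57.5 CPM and from 50.9 to 57.0 (0.26, SE 0.058, adjusted p = 0.056). MEF2A, a MADS-box factor that acts on the JUN promoter, went from 63.5 to 78.0 CPM and from 62.0 to 72.0 (0.26, SE 0.061, adjusted p = 0.0588). TGFB1, a cytokine gene with AP-1 sites, went from 102 to 80.6 CPM and from 78.5 to 69.8 (-0.25, SE 0.084, adjusted p = 0.0929). None of these passed the edgeR test with adjustment. All 4 passed by DESeq2 and with no low-count filter, and ZFP36L1 passed with the GC trend removed as well, where the other 3 did not.

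For 4SU averaged over CEP, 1 of 14 AP-1 targets passed, the cell cycle gene CCND1, as a lower level, where 0.384% of all genes were called lower. It stood at 80.4 ± 0.3 CPM in DMSO and 66.4 ± 2.5 in 4SU, and at 89.2 ± 5.3 in CEP and 69.9 ± 2.7 in CEP+4SU (SD, n = 3), a log2 fold change of -0.31 (SE 0.055, adjusted p = 0.0151, edgeR), and it passed by DESeq2 and limma. A further target, TGFB1, did not pass by edgeR (-0.29, SE 0.084, adjusted p = 0.124) or limma but passed as lower by DESeq2, with the GC trend removed and with no low-count filter. The CCND1 ranges with and without 4SU did not overlap, at 63.7 to 71.8 CPM against 80.2 to 94.0. In the other 3 lists 0 genes passed, with 0 higher and 3 lower, 0 and 3, and 0 and 1 at an unadjusted p under 0.05. Over all tested genes, 12.6% were under that threshold for 4SU averaged over CEP. DESeq2 passed MAFA among the bZIP partners and 0 in the other 2, and limma passed 0 in these 3 lists. Median log2 fold changes of the lists were -0.03, -0.01, -0.03 and, for the targets, -0.10, beside -0.00193 over all genes.

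The genes whose pattern over the 12 libraries was most like that of FOS were DUSP5, EGR1, AC005332.3, IL12A and KLHL41, among 14902 genes with a mean of at least 1 CPM. Likeness was the root mean square difference of log2 CPM after each gene was centred on its own mean. It was 0.32 for DUSP5 and 0.42 for EGR1, against a median of 0.81 over all genes compared. DUSP5, a phosphatase of ERK, stood at 3.92 CPM in DMSO, 9.94 in CEP, 4.51 in 4SU and 8.04 in CEP+4SU. EGR1, a zinc finger immediate early gene, stood at 6.04, 9.25, 4.52 and 9.00 CPM. For JUN the nearest were COMP (0.11), NPDC1, SRCIN1, B4GALNT4 and TNK2 (0.13), against a median of 0.34. NPDC1 stood at 80.1, 59.1, 73.7 and 57.0 CPM in the same order of groups. No other member was among the 5 nearest genes of FOS or of JUN. B4GALNT4, however, was among the 5 nearest of both JUN and JUND, so these members shared a neighbour.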

How the data were processed

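Poly(A) RNA of HEK293T was sequenced by the authors as paired reads in 12 libraries. Per the labels, reads were aligned to GRCh38 with HISAT2 2.0.5. The gene counts are deposited whole numbers made by the authors with featureCounts 1.5.0-p3, without normalization. The FPKM values were computed by the authors from those counts and deposited on a linear scale. The strand setting of the counting is not given in the sources used here. Columns of group means were not used.

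Groups and replicate numbers came from the sample titles. The replicates are called independent, and the study states in general that experiments were repeated on different days. No source ties a library to a culture or day, so p-values measure the spread between these libraries. Genes kept by filterByExpr (minimum count 10), 17729 with 7 of 7 members, were fitted over all 12 libraries with edgeR 4.0.16 in R 4.3.3 (TMM scaling, quasi-likelihood test, Benjamini-Hochberg threshold 0.05). The common biological coefficient of variation was 0.114. CPM uses TMM library sizes. Alternatives used DESeq2 1.42.0, limma 3.58.1 on log2(FPKM + 1) and log2(FPKM + 0.1), other scalings and filters, trends on GC or length removed (lowess span 0.3), a replicate block, and each library left out. GC came from the longest GENCODE transcript (58676 of 58735 genes). The fit was checked on simulated data. Members, lists and tests were chosen with earlier results of these data known. Named genes were the members, list genes that passed or had the smallest p in their list for CEP averaged over 4SU, the 5 genes most like FOS and JUN, and overlapping genes. Single-gene results of a few list genes are not reported here. ATF1, ATF2 and MAFA were named after their values were seen, as was leaving out CEP and CEP+4SU replicate 2 together.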

Additional observations from a re-analysis of the deposited data

How the results depend on the processing

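FOS stayed higher and JUN lower with CEP in each of 24 alternatives of the 3 CEP comparisons. Both were chosen for these directions in the same libraries, so this describes the spread over settings and is not independent support. Their averaged log2 fold changes were 1.02 to 1.60 and -0.54 to -0.36, the smallest FOS value coming with log2(FPKM + 1), whose pseudocount shrinks low genes. JUND and JUNB moved toward 0 or past it with the GC trend removed, as given above, with JUNB keeping -0.22 of -0.42 in CEP+4SU against 4SU. FOSL1, FOSL2 and FOSB had 26 to 187 counts a library, so changes of the size of their standard errors were not detectable. Among the members tested, 0 passed for 4SU averaged over CEP and for the interaction in all refits, and 1 (JUNB) did for 4SU at an adjusted p of 0.5 or less, the threshold the methods print. For CEP+4SU against 4SU, 1 member (JUND) passed with no low-count filter.

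Counts over all genes moved with the processing, and the cause was not tested. For CEP+4SU against 4SU, 8 genes passed, and 15 did by DESeq2, 65 with no low-count filter, 0 by limma at either pseudocount, 15 with the GC trend removed, 5 with the length trend removed, 13 without CEP and CEP+4SU replicate 2, and 23 at 0.5. For 4SU averaged over CEP, 99 passed (31 higher), and 336 by DESeq2, 311 unfiltered, 29 and 26 by limma with a pseudocount of 1 and 0.1, 625 with the GC trend removed, 222 without both libraries, and 3633 at 0.5. Upper-quartile scaling gave 37 higher of 80 and library size alone 45 higher of 71. For CEP averaged over 4SU, 49 passed (18 higher), and 1474 by DESeq2, 1448 unfiltered, 19 by limma at either pseudocount, and 9271 at 0.5, while the 2 other scalings gave 12 higher of 73 and 11 higher of 50. For the interaction 0 passed (467 at an unadjusted p under 0.05), and 15 unfiltered and 2 without both libraries. Leaving out 1 library gave 0 to 11 genes for CEP+4SU against 4SU (0 without 4SU replicate 1), 6 to 125 for 4SU (6 without DMSO replicate 1), 21 to 2171 for CEP averaged over 4SU (2171 without CEP replicate 1, 1131 without CEP+4SU replicate 1) and 0 to 1 for the interaction.

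Whether replicate numbers pair the libraries is not stated, and the main fit used no block for them. Deviations of same-numbered libraries correlated from -0.0469 to 0.141, with 1 of 18 pairs over 0.1. For differently numbered libraries the range was -0.158 to 0.0555, with 0 of 36 pairs over 0.1. These values do not settle whether pairing was present. With the replicate block, 16 genes passed for CEP+4SU against 4SU, 336 for 4SU and 2269 for CEP averaged over 4SU, and with the block and the GC trend removed 15, 668 and 64. The block changed no call of a tested member. For CEP averaged over 4SU, however, it passed 7 bZIP partners, 8 upstream genes, 2 AU-rich element binders and 1 target, ZFP36L1, CREB1, MEF2A and TGFB1 among them, where the fit without it passed 0. For CEP against DMSO it passed 2, 5, 1 and 1 in the same order, and for 4SU it added MAFA and TGFB1.

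Interactions near 0 changed sign. For FOS (0.0083) they were -0.0094 with upper-quartile scaling, -0.018 with library size alone, -0.055 and -0.012 by limma with a pseudocount of 1 and 0.1, -0.025 with the GC trend removed, -0.011 with the length trend removed and -0.012 with the block and GC, and -0.183 to 0.12 with 1 library left out. For FOSL1 (0.0057) they were -0.0075, -0.013, -0.062, -0.035 and -0.060 with upper-quartile scaling, library size, GC, length, and block with GC, -0.173 without both libraries, and -0.234 to 0.20 with 1 library left out. Without both libraries FOSB had 0.0081, JUNB 0.027 and JUND 0.034. With 1 library left out JUNB ranged from -0.272 to 0.028 and JUND from -0.164 to 0.112.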
